A study of Homo sapiens with 9 samples.

Results

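Semaphorins are a family of secreted and membrane-bound guidance cues, plexins are the transmembrane receptors that read them, and neuropilins are coreceptors that hold the secreted class 3 semaphorins on plexins. The genes described here were every gene of the deposited table whose symbol is that of a class 3 to class 7 semaphorin, a plexin or a neuropilin, which gave 31 of 42717 genes. They were 20 semaphorins (7 of class 3, 6 of class 4, 2 of class 5, 4 of class 6 and 1 of class 7), 9 plexins and 2 neuropilins. Membership follows from the symbol alone and uses no measured value. The family itself was picked with earlier results of these data known, so its shares of called genes are given as descriptions.

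RNA was sequenced from 3 sublines of SUIT-2, a human pancreatic ductal adenocarcinoma (PDAC) cell line, with 3 libraries per line and 9 in all. S2-007 carries the serine protease inhibitor maspin in the nucleus and the cytoplasm (panMaspin). S2-028 carries maspin predominantly in the cytoplasm (cytMaspin), and in S2-020 it is weakly detected. All 3 lines were untreated cells grown alike in DMEM with serum, and no line was modified for the sequencing. Each line is a single subline, so maspin cannot be told apart from any other difference between the lines.

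In the developing nervous system a growth cone that meets a semaphorin usually turns away. A plexin carries a GTPase-activating domain in its cytoplasmic part, and ligand binding acts on actin, microtubules and adhesion. Class 3 semaphorins are secreted, class 4 to class 6 members span the membrane, and SEMA7A is held at the surface by a lipid anchor. Tumour cells, vessels and leukocytes use the same ligands and receptors, and in the pancreas axon guidance genes are among those known to be altered in PDAC.

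Total counts lay between 60328748 and 86253923 per library, and the 31 genes took between 0.159% and 0.273% of them. All 31 genes passed the filter on low counts in all 3 comparisons. The lowest counts were 5 for SEMA3F in S2-020 replicate 1 and 8 for SEMA6B in S2-007 replicate 3, and no other count of the 31 genes was under 10, so these genes entered the comparisons with those lines through the other line. Of the markers of pancreatic epithelium, EPCAM, CDH1, KRT8, KRT18 and KRT19 summed to 9322 to 9817 CPM in S2-007, 4268 to 5384 CPM in S2-020 and 14381 to 16875 CPM in S2-028. They were called lower for 4 of 5 in S2-020 against S2-007, higher for 5 of 5 in S2-028 against S2-020, and higher for 3 of 5 (CDH1, KRT8 and KRT18) in S2-028 against S2-007. In the last comparison the other 2, EPCAM and KRT19, had negative log2 fold changes (lowest -0.32) and were not called. KRT19 held 2135, 2157 and 2078 CPM in S2-007, 116, 102 and 90.2 CPM in S2-020 and 2105, 1857 and 1839 CPM in S2-028. The 4 fibroblast markers summed to at most 5.75 CPM in any library, the 3 endothelial markers to at most 9.84 CPM and the 4 Schwann cell and neuron markers to at most 2.34 CPM. Of the 3 leukocyte markers, CD3E was at 0 in every S2-007 library, held 8 to 22 reads in S2-020 and 18 to 22 reads in S2-028 and was called higher in S2-028 against S2-007 (adjusted p = 0.000127), PTPRC was at or under 0.407 CPM, and CD68, which epithelial tumour cells can also express, held 38.3, 41.7 and 43.2 CPM in S2-007, 7.52, 7.42 and 8.58 CPM in S2-020 and 10.4, 9.59 and 11.3 CPM in S2-028. Epithelial marker levels thus differed in all 3 comparisons below, and in S2-028 against S2-007 they did so in both directions. Their part in the results was not tested.

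Promoters are shown for 2 pairs of genes, picked because they moved together across the lines. These were PLXNB3 with SEMA7A (lowest in S2-020 and highest in S2-028) and PLXNA2 with SEMA4G (high in S2-007 alone). Other genes of the family shared these orders, among them NRP1, PLXNA3 and SEMA3E the first and SEMA6C the second. Each run is the 250 bases before the annotated start of transcription in RefSeq (GRCh38.p14), written 5′ to 3′ on the strand of the gene, with every CG dinucleotide in capitals, since promoters in CpG islands are dense in them. For SEMA4G and SEMA7A, which have 2 listed starts each, the outermost start was used.

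PLXNB3, chrX:153763999-153764248, plus strand: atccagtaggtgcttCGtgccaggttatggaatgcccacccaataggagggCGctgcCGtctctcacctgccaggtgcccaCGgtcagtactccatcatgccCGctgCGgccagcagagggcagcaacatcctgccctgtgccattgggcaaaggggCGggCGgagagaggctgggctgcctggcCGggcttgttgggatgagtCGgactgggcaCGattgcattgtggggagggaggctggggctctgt

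SEMA7A, chr15:74433959-74434208, minus strand: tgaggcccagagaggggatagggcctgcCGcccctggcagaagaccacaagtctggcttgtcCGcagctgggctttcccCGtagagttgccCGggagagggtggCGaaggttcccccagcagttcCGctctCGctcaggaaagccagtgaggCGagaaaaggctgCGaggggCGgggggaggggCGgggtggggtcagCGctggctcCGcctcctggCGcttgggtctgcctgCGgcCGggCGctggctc

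PLXNA2, chr1:208244385-208244634, minus strand: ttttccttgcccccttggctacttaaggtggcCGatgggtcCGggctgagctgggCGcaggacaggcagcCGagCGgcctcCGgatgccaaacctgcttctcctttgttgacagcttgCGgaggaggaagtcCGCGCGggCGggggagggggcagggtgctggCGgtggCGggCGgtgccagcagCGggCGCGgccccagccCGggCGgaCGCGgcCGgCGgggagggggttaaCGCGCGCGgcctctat

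SEMA4G, chr10:100969254-100969503, plus strand: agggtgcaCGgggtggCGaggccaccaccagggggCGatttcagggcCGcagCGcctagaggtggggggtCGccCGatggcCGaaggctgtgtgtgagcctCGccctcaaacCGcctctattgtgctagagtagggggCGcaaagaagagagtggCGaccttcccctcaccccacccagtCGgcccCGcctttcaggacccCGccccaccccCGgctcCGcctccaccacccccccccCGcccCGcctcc

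These windows held 11 CG in PLXNB3, 17 in SEMA7A, 27 in PLXNA2 and 19 in SEMA4G, against a median of 11 (quartiles 3 and 23) over all 35116 promoters of the table. Of the genes named above with the same orders, PLXNA3 held 41 CG, SEMA3E 6 and SEMA6C 24. An entry existed for 27 of the 31 genes, with a median of 18 CG (range 2 to 46), and there was none for SEMA6A, SEMA6B, NRP1 and SEMA3A. The letters GGGCGG, the core of the binding site of SP1, stood on either strand in 19 of the 27 windows and in 42.6% of all windows of that length. The letters CACCTG, an E-box that SNAI and ZEB repressors can bind, stood on either strand in 5 of the 27 and in 17.5% of all. Neither methylation nor factor binding was measured, so these are descriptions of the sequence.

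S2-028 was compared with S2-007 to ask how the cytMaspin line differs from the panMaspin line. Of the 31 genes, 10 were higher in S2-028 and 8 lower, with an adjusted p under 0.05 (edgeR quasi-likelihood test) and a difference of 1.5-fold or more, which were the thresholds of the study. Over all 26371 genes tested, 10.2% were called higher and 8.19% lower, so 18.4% were called in either direction against 58.1% of the 31 genes. By adjusted p alone 13 were higher and 10 lower, where 33.9% of all genes passed. The largest changes were those of SEMA6B (4.86), SEMA4A (3.51) and SEMA6A (3.02) upward and of SEMA3B (-3.43), SEMA4G (-3.39) and PLXNA2 (-3.33) downward, on the log2 scale. The median log2 fold change was 0.08 over the 31 genes and 0.00 over all genes tested. Every S2-028 library lay on the same side of every S2-007 library for 22 of the 31 genes, against 43.3% of all genes tested.

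S2-020, the line with weak maspin, differed from S2-007 mostly downward. Of the 31 genes 14 were lower in S2-020 and 2 higher, where 12.1% of all 26657 genes tested were called lower and 9.57% higher. That made 51.6% of the 31 genes in either direction, against 21.6% of all genes. By adjusted p alone 17 were lower and 2 higher, where 40.2% of all genes passed. The largest decreases were those of SEMA3A (-5.21) and SEMA4G (-4.20), and the 2 genes that were higher were SEMA6B (6.40) and PLXNA1 (1.66). The median log2 fold change was -0.54 over the 31 genes and -0.05 over all genes. Libraries did not overlap for 21 of the 31 genes, against 48.5% of all genes tested.

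Between S2-028 and S2-020, 13 of the 31 genes were higher in S2-028 and 4 lower, where 12.1% of the 26031 genes tested were called higher and 10.1% lower. In either direction these were 54.8% of the 31 genes and 22.2% of all. By adjusted p alone 16 were higher and 5 lower, where 40.4% of all genes passed. The largest differences were those of SEMA3A (5.55), PLXNB3 (4.85) and SEMA7A (4.77), all higher in S2-028. The median log2 fold change was 0.39 over the 31 genes and 0.02 over all genes, and the libraries did not overlap for 23 of the 31 genes, against 48.9% of all. The 3 comparisons share libraries, so their values are given side by side below and are not independent of each other.

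**Figure D1:**
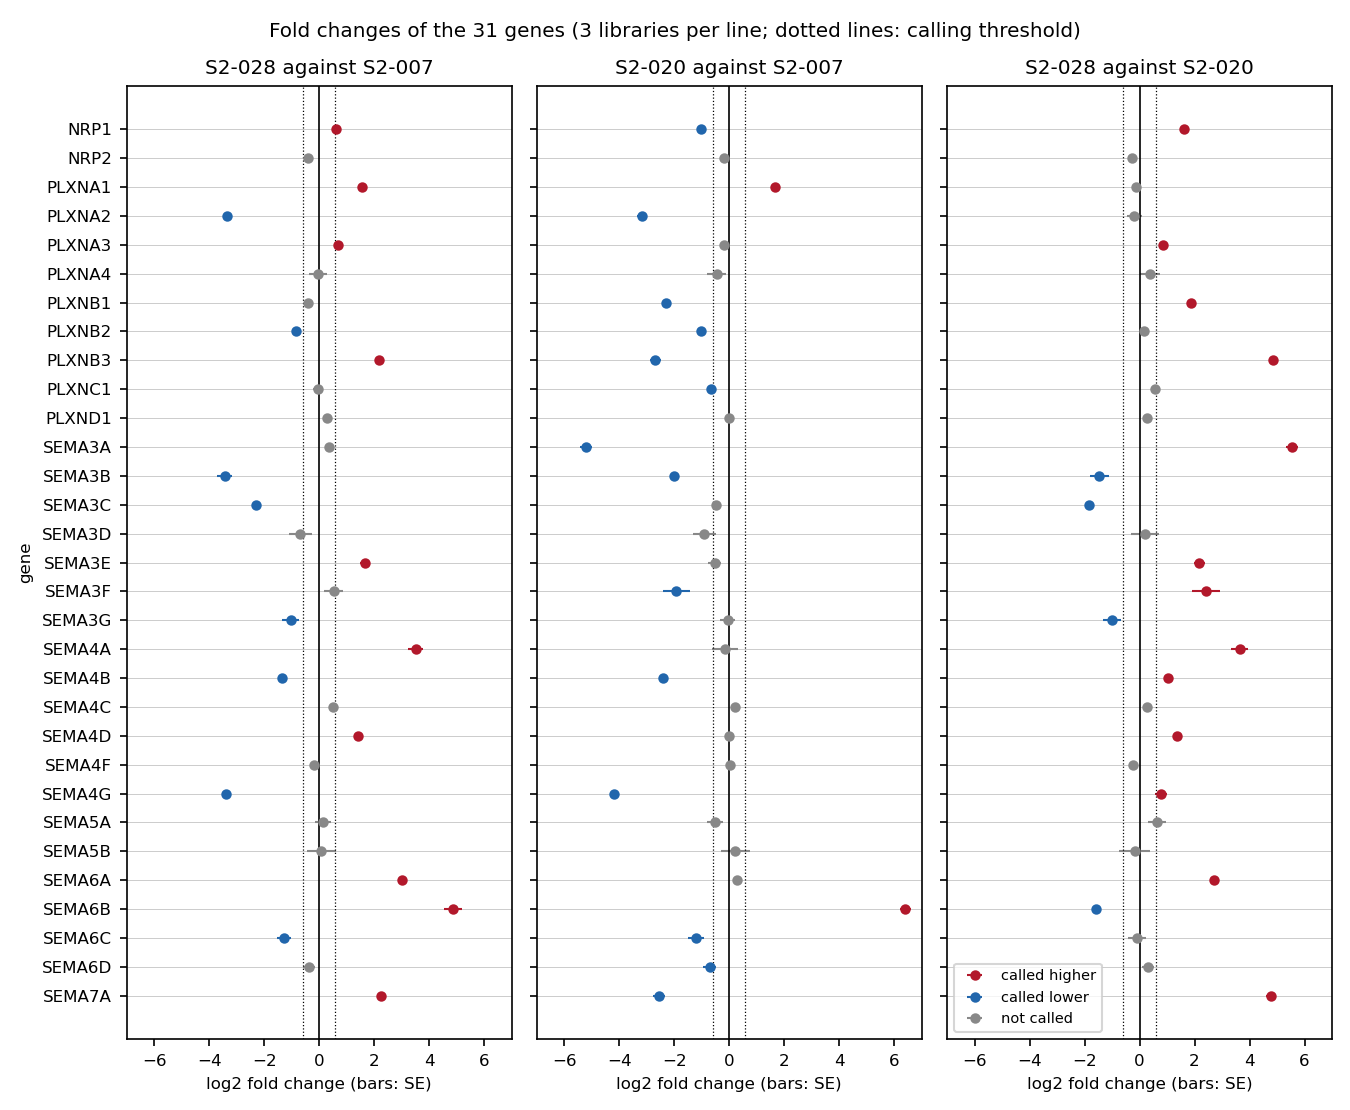
Log2 fold change of each of the 31 genes (x axis, log2 scale, bars are SE) in the 3 comparisons of lines, with 3 libraries per line, red for genes called higher, blue for genes called lower and grey for genes not called. In S2-020 against S2-007, 14 genes are called lower and 2 (PLXNA1 and SEMA6B) higher.

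The libraries are of bulk cultures, so fewer cells that express a gene and less RNA of it per cell cannot be told apart. Nothing in the labels says that the 3 libraries of a line came from separate cultures, and p-values then measure only the spread between these libraries. In the following, CPM are counts scaled to library size with TMM factors of all 9 libraries, given for replicates 1, 2 and 3 in that order, and fold changes are on the log2 scale with the first-named line over the second. Coordinates are those of GRCh38.p14.

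Both neuropilins were expressed in all lines, and NRP1 alone was called different. NRP1 (chr10:33177493-33334667, minus strand) binds SEMA3A and VEGFA and passes the signal on through A-type plexins or VEGF receptors. It held 159, 166 and 173 CPM in the S2-007 libraries, 85.4, 83.3 and 79.9 CPM in the S2-020 libraries and 264, 238 and 265 CPM in the S2-028 libraries. The 3 lines did not overlap, with S2-028 highest and S2-020 lowest. The log2 fold change was 0.63 (SE 0.062, adjusted p = 3.95e-08) in S2-028 against S2-007, -1.03 (SE 0.053, adjusted p = 3.17e-12) in S2-020 against S2-007 and 1.63 (SE 0.057, adjusted p = 1.60e-14) in S2-028 against S2-020. NRP2, the coreceptor preferred by SEMA3F and SEMA3G, held 436, 446 and 448 CPM in the S2-007 libraries, 412, 421 and 369.8 CPM in the S2-020 libraries and 331, 347 and 317 CPM in the S2-028 libraries. Its differences passed the adjusted p but stayed under the fold threshold, at -0.42 (SE 0.056, adjusted p = 3.04e-06) in S2-028 against S2-007, -0.18 (SE 0.053, adjusted p = 0.00994) in S2-020 against S2-007 and -0.27 (SE 0.055, adjusted p = 0.000432) in S2-028 against S2-020. Per kb of transcript, NRP2 exceeded NRP1 2.27 ± 0.0666 times in S2-007, 4.103 ± 0.179 times in S2-020 and 1.11 ± 0.115 times in S2-028 (mean ± SD, n = 3), and the 3 lines did not overlap in it. With the union of all annotated exons as the length, the ratio in S2-028 was 1.08 ± 0.112. With that length it was 1.04, 1.21 and 0.992 in S2-028 replicates 1, 2 and 3. NRP2 was thus the higher neuropilin in S2-028 by the mean with either length. Only in replicate 3 did the order depend on the length (1.02 per kb of transcript).

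Among the A-type plexins, the partners of neuropilins and direct receptors of class 6 semaphorins, PLXNA1 and PLXNA2 stood in opposite order. PLXNA1 (chr3:126983115-127037389, plus strand) held 97.2, 108 and 122 CPM in the S2-007 libraries, 304, 324 and 424 CPM in the S2-020 libraries and 312, 313 and 347 CPM in the S2-028 libraries, so every library of S2-020 and S2-028 was above every library of S2-007. It was higher by 1.58 (SE 0.072, adjusted p = 1.78e-13) in S2-028 and by 1.66 (SE 0.095, adjusted p = 1.58e-11) in S2-020 against S2-007, while S2-028 and S2-020 overlapped (-0.11 (SE 0.087, adjusted p = 0.346)). PLXNA2 (chr1:208022242-208244384, minus strand), a receptor of SEMA6A and SEMA6B, held 13.3, 15.3 and 15.3 CPM in the S2-007 libraries, 1.17, 2.12 and 1.65 CPM in the S2-020 libraries and 1.22, 1.82 and 1.296 CPM in the S2-028 libraries. It was high in S2-007 alone, and the other lines overlapped. Against S2-007, its log2 fold change was -3.33 (SE 0.16, adjusted p = 5.45e-13) in S2-028 and -3.18 (SE 0.17, adjusted p = 4.60e-12) in S2-020, and -0.19 (SE 0.28, adjusted p = 0.662) between S2-028 and S2-020.

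PLXNA3 (chrX:154458281-154477779, plus strand), which pairs with NRP2 for SEMA3F, held 61.9, 60.2 and 61.98 CPM in the S2-007 libraries, 54.5, 56.5 and 52.8 CPM in the S2-020 libraries and 94.8, 111 and 90.5 CPM in the S2-028 libraries. S2-028 was above both other lines, by 0.69 (SE 0.072, adjusted p = 8.76e-08) against S2-007 and 0.86 (SE 0.072, adjusted p = 7.26e-09) against S2-020. S2-020 lay below S2-007 in every library by less than the fold threshold (-0.20 (SE 0.057, adjusted p = 0.00751)). PLXNA4, which is mainly neuronal, lay between 0.376 and 1.02 CPM over the 9 libraries, the lines overlapped, and it was not called in any comparison (log2 fold changes -0.038, -0.46 and 0.39 in the order above).

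The B-type plexins bind class 4 semaphorins, and some of them also associate with the receptor tyrosine kinases MET and ERBB2. PLXNB1 (chr3:48403854-48430310, minus strand), the receptor of SEMA4D, held 178, 157 and 154 CPM in the S2-007 libraries, 30.7, 34.4 and 35.6 CPM in the S2-020 libraries and 119, 132 and 114 CPM in the S2-028 libraries. S2-020 lay far below both other lines, by -2.31 (SE 0.072, adjusted p = 1.12e-15) against S2-007, and S2-028 was 1.86 (SE 0.071, adjusted p = 6.37e-14) above S2-020. S2-028 was also below S2-007 in every library, under the fold threshold (-0.42 (SE 0.071, adjusted p = 6.07e-05)). PLXNB2 (chr22:50274979-50307646, minus strand), a receptor of SEMA4C, held 793, 803 and 810.0 CPM in the S2-007 libraries, 403, 391 and 403 CPM in the S2-020 libraries and 459, 456 and 428 CPM in the S2-028 libraries. It was highest in S2-007 in every library, and was lower by -0.84 (SE 0.054, adjusted p = 5.40e-11) in S2-028 and -1.04 (SE 0.045, adjusted p = 1.87e-13) in S2-020. Between these the difference was 0.17 (SE 0.047, adjusted p = 0.00741), which is under the fold threshold.

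PLXNB3 (chrX:153764249-153779341, plus strand), a receptor of SEMA5A whose promoter is shown above, had the widest range of the plexins in fold. Its libraries held 6.43, 4.69 and 6.14 CPM in the S2-007 libraries, 0.989, 0.902 and 0.837 CPM in the S2-020 libraries and 25.03, 28.4 and 25.1 CPM in the S2-028 libraries. The order was S2-028, S2-007, S2-020, with no overlap between any lines. In log2 fold change this was 2.19 (SE 0.12, adjusted p = 3.78e-12) in S2-028 against S2-007, -2.69 (SE 0.20, adjusted p = 8.11e-10) in S2-020 against S2-007 and 4.85 (SE 0.13, adjusted p = 3.18e-16) in S2-028 against S2-020. Of its exon bases 20.3% also lie in exons of SRPK3 on the same strand, whose own count was at most 41 in any library, and the tool that assigned reads to genes was not given in the sources used here.

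PLXNC1 (chr12:94148577-94307675, plus strand), the plexin that binds SEMA7A, held 5.59, 7.04 and 5.98 CPM in the S2-007 libraries, 3.48, 4.21 and 4.42 CPM in the S2-020 libraries and 5.91, 6.85 and 5.17 CPM in the S2-028 libraries. It was lower in S2-020 than in S2-007 at -0.65 (SE 0.15, adjusted p = 0.00183), close to the fold threshold, and fell under it without S2-007 replicate 2 (-0.53) or without S2-020 replicate 1 (-0.56). Against S2-020, S2-028 was at 0.57 (SE 0.16, adjusted p = 0.00821), just under the threshold, and passed it when S2-020 replicate 2 or 3 or S2-028 replicate 3 was left out (0.59 to 0.67). PLXND1, the receptor of SEMA3E in vessels, was not called in any comparison. It held 52.6, 54.2 and 56.6 CPM in the S2-007 libraries, 53.7, 56.4 and 57.2 CPM in the S2-020 libraries and 67.6, 67.9 and 65.8 CPM in the S2-028 libraries, and S2-028 was above both other lines in every library by less than the threshold, 0.30 (SE 0.062, adjusted p = 0.000465) against S2-007 and 0.27 (SE 0.059, adjusted p = 0.000949) against S2-020.

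**Figure D2:**
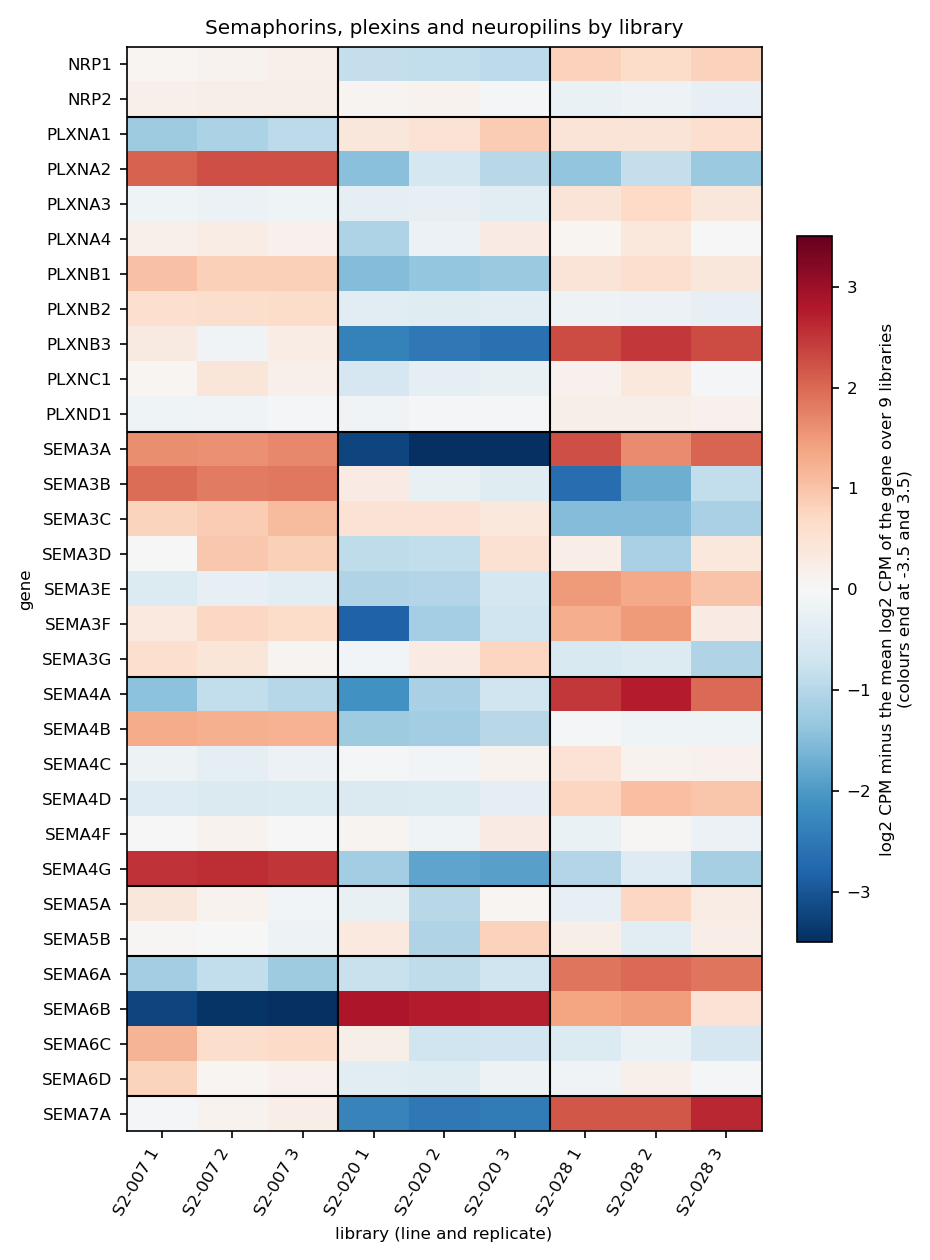
Each row is a gene, each column a library, and the colour is the log2 CPM of the gene in that library minus the mean of its log2 CPM over the 9 libraries, with lines between the neuropilins, the plexins and each semaphorin class. SEMA6B is lowest in the S2-007 libraries (0.109 to 0.374 CPM), SEMA3A, PLXNB3 and SEMA7A are lowest in the S2-020 libraries, and PLXNA2 and SEMA4G are high in the S2-007 libraries only.

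Class 3 semaphorins, the secreted members, moved in different directions. SEMA3A (chr7:83955777-84492725, minus strand), the classic repellent that acts through NRP1 and A-type plexins, was nearly missing from S2-020. It held 8.78, 8.57 and 9.15 CPM in the S2-007 libraries, 0.306, 0.253 and 0.167 CPM in the S2-020 libraries and 13.6, 8.94 and 11.7 CPM in the S2-028 libraries, which in S2-020 were 22, 21 and 12 reads. It differed by -5.21 (SE 0.21, adjusted p = 8.67e-14) in S2-020 against S2-007 and 5.55 (SE 0.23, adjusted p = 2.66e-13) in S2-028 against S2-020. S2-028 and S2-007 overlapped, at 0.37 (SE 0.14, adjusted p = 0.0462). NRP1, its coreceptor, was lowest in the same line.

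SEMA3B and SEMA3F lie near each other on the short arm of chromosome 3, a region often lost in carcinomas, and both are known as candidate tumour suppressors. SEMA3B (chr3:50260226-50277546, plus strand) held 10.2, 9.26 and 9.45 CPM in the S2-007 libraries, 3.24, 2.21 and 1.95 CPM in the S2-020 libraries and 0.419, 0.799 and 1.46 CPM in the S2-028 libraries. All 3 lines were apart, in the order S2-007, S2-020, S2-028, with -3.43 (SE 0.26, adjusted p = 9.40e-10) in S2-028 and -1.997 (SE 0.17, adjusted p = 7.34e-09) in S2-020 against S2-007 and -1.47 (SE 0.34, adjusted p = 0.00167) in S2-028 against S2-020. SEMA3F (chr3:50155058-50189075, plus strand) held 0.628, 0.8197 and 0.774 CPM in the S2-007 libraries, 0.0696, 0.216 and 0.307 CPM in the S2-020 libraries and 1.19, 1.41 and 0.607 CPM in the S2-028 libraries. It was lower in S2-020 than in S2-007 by -1.93 (SE 0.50, adjusted p = 0.00367) and higher in S2-028 than in S2-020 by 2.43 (SE 0.50, adjusted p = 0.000515), from 5, 18 and 22 reads in S2-020, while S2-028 and S2-007 overlapped (0.53 (SE 0.35, adjusted p = 0.287)). SEMA3G (chr3:52433035-52445103, minus strand), a ligand of NRP2 on the same arm, held 1.52, 1.36 and 1.09 CPM in the S2-007 libraries, 0.961, 1.24 and 1.701 CPM in the S2-020 libraries and 0.709, 0.736 and 0.492 CPM in the S2-028 libraries. It was called lower in S2-028, at -1.03 (SE 0.32, adjusted p = 0.0146) against S2-007 and -1.005 (SE 0.33, adjusted p = 0.0181) against S2-020, and S2-020 and S2-007 overlapped (-0.059 (SE 0.28, adjusted p = 0.901)). Both calls of SEMA3G were lost without single libraries, with an adjusted p of 0.0735 without S2-007 replicate 1 and 0.0617 without S2-028 replicate 3 in the first comparison, and 0.125 without S2-020 replicate 3 and 0.0744 without S2-028 replicate 3 in the second.

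SEMA3C (chr7:80742538-80922389, minus strand), a ligand of both neuropilins that many carcinomas express, was the most abundant class 3 member per kb in each line. It held 199, 213 and 249.8 CPM in the S2-007 libraries, 165, 164 and 149 CPM in the S2-020 libraries and 40.3, 40.7 and 52.3 CPM in the S2-028 libraries. S2-028 was below both other lines, by -2.31 (SE 0.092, adjusted p = 1.90e-14) against S2-007 and -1.84 (SE 0.083, adjusted p = 7.22e-13) against S2-020. S2-020 was below S2-007 in every library, under the fold threshold (-0.50 (SE 0.066, adjusted p = 3.19e-06)). SEMA3E (chr7:83363238-83649139, minus strand), which binds PLXND1 without a neuropilin, held 1.76, 1.99 and 1.87 CPM in the S2-007 libraries, 1.17, 1.19 and 1.604 CPM in the S2-020 libraries and 6.897, 6.13 and 4.89 CPM in the S2-028 libraries. It was higher in S2-028, by 1.67 (SE 0.19, adjusted p = 2.95e-07) against S2-007 and 2.18 (SE 0.20, adjusted p = 3.33e-08) against S2-020, and the difference between S2-020 and S2-007 was not called (-0.54 (SE 0.24, adjusted p = 0.0793)) but passed without S2-020 replicate 3 (-0.698, adjusted p = 0.04503). SEMA3D was low, at 0.266 to 1.13 CPM, the lines overlapped, and it was not called in any comparison (-0.68, -0.92 and 0.20). It passed both thresholds in S2-020 against S2-007 without S2-007 replicate 1 (-1.14, adjusted p = 0.0456) or without S2-020 replicate 3 (-1.54, adjusted p = 0.00874).

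Class 4 semaphorins span the membrane and signal mainly through B-type plexins. SEMA4B (chr15:90184920-90229661, plus strand) was the most abundant of them per kb in all 3 lines. It held 438, 419 and 417 CPM in the S2-007 libraries, 75.4, 77.3 and 91.1 CPM in the S2-020 libraries and 174, 159 and 161 CPM in the S2-028 libraries. The lines did not overlap, with S2-007 highest and S2-020 lowest. The differences were -1.36 (SE 0.061, adjusted p = 1.44e-13) in S2-028 against S2-007, -2.42 (SE 0.066, adjusted p = 1.90e-16) in S2-020 against S2-007 and 1.02 (SE 0.068, adjusted p = 2.72e-10) in S2-028 against S2-020.

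SEMA4G (chr10:100969504-100985616, plus strand), whose promoter is shown above, was high in S2-007 alone. It held 71.7, 74.6 and 69.9 CPM in the S2-007 libraries, 5.29, 3.44 and 3.32 CPM in the S2-020 libraries and 6.14, 8.99 and 5.51 CPM in the S2-028 libraries. It was lower by -3.39 (SE 0.12, adjusted p = 4.05e-15) in S2-028 and by -4.20 (SE 0.12, adjusted p = 4.69e-16) in S2-020. Between S2-028 and S2-020 the difference was 0.78 (SE 0.20, adjusted p = 0.003998), and it dropped under the fold threshold without S2-028 replicate 2 (0.56). Of the exon bases of SEMA4G 24.4% lie under other genes on the opposite strand, among them MRPL43, a mitochondrial ribosomal protein. MRPL43 held a mean of 55.3 CPM in S2-007, 39.0 CPM in S2-020 and 54.3 CPM in S2-028, with log2 fold changes of -0.02 in S2-028 against S2-007, -0.54 (adjusted p = 4.72e-07) in S2-020 against S2-007 and 0.48 (adjusted p = 9.54e-06) in S2-028 against S2-020. In the latter 2 it moved in the direction of SEMA4G (-4.20 and 0.78), and how much shared reads add to the values of SEMA4G was not tested.

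SEMA4A and SEMA4D, both also known for signalling between immune cells, were higher in S2-028 than in the other lines. SEMA4A (chr1:156147373-156177744, plus strand) held 0.361, 0.538 and 0.489 CPM in the S2-007 libraries, 0.223, 0.445 and 0.5996 CPM in the S2-020 libraries and 5.45, 6.58 and 3.81 CPM in the S2-028 libraries. S2-007 and S2-020 overlapped (-0.16 (SE 0.47, adjusted p = 0.836)), and S2-028 was above them by 3.51 (SE 0.26, adjusted p = 4.44e-10) and 3.64 (SE 0.30, adjusted p = 5.49e-09). SEMA4D (chr9:89360787-89498113, minus strand), the ligand of PLXNB1, held 9.72, 9.21 and 9.47 CPM in the S2-007 libraries, 9.203, 9.403 and 10.5 CPM in the S2-020 libraries and 22.1, 27.4 and 25.7 CPM in the S2-028 libraries. S2-028 was above S2-007 by 1.41 (SE 0.10, adjusted p = 3.55e-10) and above S2-020 by 1.37 (SE 0.10, adjusted p = 1.70e-09), and S2-020 and S2-007 were at 0.0042 (SE 0.11, adjusted p = 0.985).

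SEMA4C and SEMA4F were not called in any comparison. SEMA4C, a ligand of PLXNB2, held 15.6, 13.9 and 15.4 CPM in the S2-007 libraries, 17.3, 16.6 and 19.1 CPM in the S2-020 libraries and 25.3, 19.2 and 19.6 CPM in the S2-028 libraries. S2-028 was above S2-007 in every library with 0.52 (SE 0.11, adjusted p = 0.000816), under the fold threshold. SEMA4F lay between 11.3 and 16.3 CPM in the 9 libraries, with log2 fold changes of -0.17, 0.020 and -0.22 in the order above. The class 5 members, which carry thrombospondin repeats, were low and overlapped between all lines. SEMA5A, the ligand of PLXNB3, lay between 0.637 and 2.07 CPM and SEMA5B between 0.168 and 0.614 CPM, and neither was called in any comparison.

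Class 6 semaphorins are membrane ligands of A-type plexins, and SEMA6B, SEMA4A and SEMA6A were the 3 genes with the largest increase in S2-028 against S2-007. SEMA6B (chr19:4542593-4559684, minus strand) held 0.374, 0.323 and 0.109 CPM in the S2-007 libraries, 24.5, 23.1 and 22.8 CPM in the S2-020 libraries and 9.07, 9.54 and 4.97 CPM in the S2-028 libraries. The S2-007 libraries held 28, 24 and 8 reads. All 3 lines were apart, with S2-020 highest. It was 6.40 (SE 0.20, adjusted p = 1.34e-15) higher in S2-020 and 4.86 (SE 0.33, adjusted p = 9.85e-11) higher in S2-028 than in S2-007, and -1.57 (SE 0.16, adjusted p = 1.40e-07) in S2-028 against S2-020. SEMA6A (chr5:116443555-116574823, minus strand) held 3.53, 4.52 and 3.48 CPM in the S2-007 libraries, 4.79, 4.45 and 5.15 CPM in the S2-020 libraries and 30.1, 32.99 and 30.03 CPM in the S2-028 libraries. It was higher in S2-028, by 3.02 (SE 0.12, adjusted p = 1.22e-14) against S2-007 and 2.70 (SE 0.10, adjusted p = 4.57e-14) against S2-020, while S2-020 and S2-007 overlapped (0.29 (SE 0.16, adjusted p = 0.188)). PLXNA2, to which both ligands bind, was at 1.17 to 2.12 CPM in S2-020 and S2-028 and high in S2-007. SEMA6B was higher than in S2-007 in both of the lines with low PLXNA2. SEMA6A was so in S2-028 only, and in S2-020 (4.45 to 5.15 CPM) it overlapped S2-007 (3.48 to 4.52 CPM).

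SEMA6C (chr1:151131685-151146631, minus strand) held 3.101, 2.08 and 2.15 CPM in the S2-007 libraries, 1.56, 0.8297 and 0.851 CPM in the S2-020 libraries and 0.983, 1.16 and 0.902 CPM in the S2-028 libraries. It was lower than in S2-007 by -1.27 (SE 0.26, adjusted p = 0.000476) in S2-028 and by -1.21 (SE 0.28, adjusted p = 0.00127) in S2-020, and these lines overlapped (-0.085 (SE 0.32, adjusted p = 0.875)). SEMA6D (chr15:47184089-47774228, plus strand), a ligand of PLXNA1, held 4.12, 2.499 and 2.64 CPM in the S2-007 libraries, 1.87, 1.78 and 2.12 CPM in the S2-020 libraries and 2.19, 2.69 and 2.28 CPM in the S2-028 libraries. It was called lower in S2-020 than in S2-007 (-0.72 (SE 0.22, adjusted p = 0.0136)), a call that was lost without S2-007 replicate 1 (adjusted p = 0.157) and without S2-020 replicate 2 (adjusted p = 0.0567). The other comparisons of SEMA6D gave -0.37 and 0.32 and were not called.

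SEMA7A (chr15:74409289-74433958, minus strand), the only class 7 member, binds PLXNC1 and integrin beta 1. It held 3.52, 3.99 and 4.32 CPM in the S2-007 libraries, 0.724, 0.649 and 0.669 CPM in the S2-020 libraries and 16.5, 16.6 and 22.8 CPM in the S2-028 libraries. The lines did not overlap, in the same order as PLXNB3. These differences were 2.24 (SE 0.14, adjusted p = 3.76e-11) in S2-028 against S2-007, -2.56 (SE 0.21, adjusted p = 5.28e-09) in S2-020 against S2-007 and 4.77 (SE 0.17, adjusted p = 2.23e-14) in S2-028 against S2-020. PLXNC1 was also lowest in S2-020, but over a narrower range (3.48 to 4.42 CPM there and 5.17 to 7.04 CPM in the other lines).

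Levels of different genes were compared per kb of transcript, with the length of the MANE transcript, the reference transcript that RefSeq and Ensembl share. Summed over the 20 semaphorins, S2-007 held 190.3 ± 3.04 CPM per kb, S2-020 73.6 ± 1.37 and S2-028 85.2 ± 1.44 (mean ± SD, n = 3). SEMA4B made up 59.01 ± 2.02% of that sum in S2-007, 29.2 ± 2.65% in S2-020 and 51.1 ± 1.69% in S2-028. SEMA3C made up 23.8 ± 2.49% in S2-007, 44.4 ± 3.09% in S2-020 and 10.7 ± 1.698% in S2-028. These were the leading semaphorins of every line, and the lead passed from SEMA4B to SEMA3C in S2-020. The next in order differed. It was SEMA4G in S2-007 (8.44 ± 0.411%) and SEMA6B in S2-020 (8.25 ± 0.366%). In S2-028 SEMA4C (6.85 ± 0.977%), SEMA7A (6.48 ± 1.29%) and SEMA4D (6.46 ± 0.795%) came next, and did not differ from each other beyond their spread on this length.

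The 9 plexins summed to 176 ± 1.63 CPM per kb in S2-007, 119 ± 7.73 in S2-020 and 146 ± 3.09 in S2-028. PLXNB2 led in all lines, with 71.03 ± 0.477%, 52.6 ± 3.096% and 47.95 ± 1.29% in that order. PLXNA1 took 6.63 ± 0.695% in S2-007, 31.6 ± 3.64% in S2-020 and 23.9 ± 1.94% in S2-028, and PLXNB1 took 12.9 ± 1.11%, 3.94 ± 0.203% and 11.6 ± 0.616%. Behind PLXNB2, PLXNB1 stood above PLXNA1 in S2-007 and PLXNA1 above PLXNB1 in S2-020 and S2-028. PLXND1 (7.88 to 9.71 CPM per kb as the mean of a line) and PLXNA3 (5.02 to 9.09) came next, and both means were above that of PLXNB1 in S2-020 (4.68). The remaining plexins PLXNA2, PLXNA4, PLXNB3 and PLXNC1 stayed at or under 4.25 CPM per kb as the mean of any line. With the union of all annotated exons as the length, the semaphorin sums were 121.6 CPM per kb in S2-007, 51.4 in S2-020 and 52.6 in S2-028, and SEMA4B and SEMA3C, and PLXNB2, still led in the same lines. The order behind them in S2-028 changed with that length, to SEMA7A (9.31 ± 1.78%), SEMA4C (6.48 ± 0.956%) and SEMA6A (5.41 ± 0.374%), with SEMA4D at 3.37 ± 0.407%, and SEMA7A then lay above the others in every library.

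**Figure D3:**
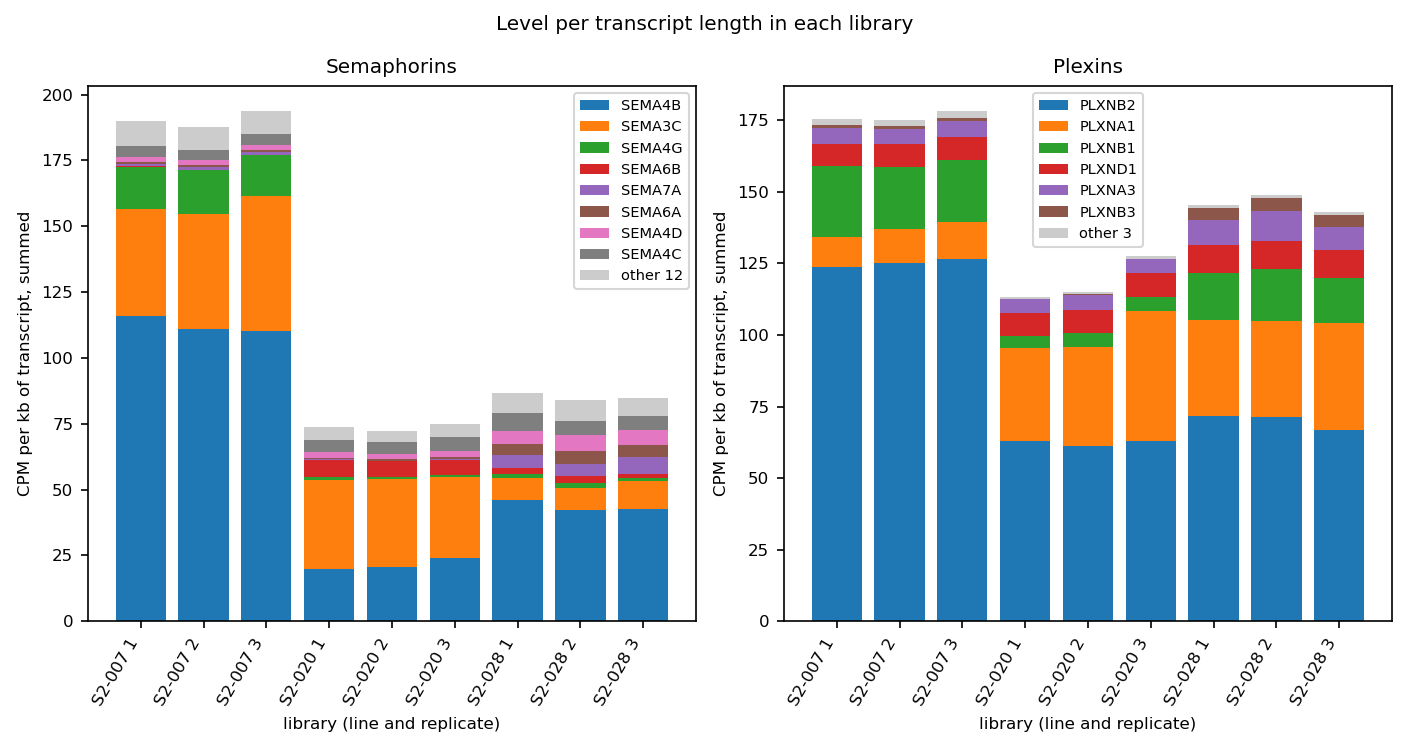
Stacked bars of CPM per kb of transcript in each of the 9 libraries (y axis from 0), for the 20 semaphorins on the left and the 9 plexins on the right, with the most abundant genes coloured and the rest in light grey. The semaphorin bars stand at 188 to 194 CPM per kb in S2-007, against 72.2 to 74.96 in S2-020 and 84.1 to 86.8 in S2-028.

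The other genes of the pathway were followed in lists of 15 coreceptors, 5 VEGF ligands, 36 intracellular effectors and 8 proteases that process or release semaphorins. Of 58 tested in S2-028 against S2-007, 10 were higher and 11 lower, 36.2% in either direction against 18.4% of all genes. Of 60 in S2-020 against S2-007, 11 were higher and 16 lower, 45.0% against 21.6% of all genes. Of 59 in S2-028 against S2-020, 14 were higher and 10 lower, 40.7% against 22.2% of all genes. Their medians were 0.01, -0.15 and 0.09 on the log2 scale, where those of all genes tested were 0.00, -0.05 and 0.02.

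Of the coreceptors tested, 4 of 13 were lower and 1 higher in S2-020 against S2-007, 2 of 12 were lower and 1 higher in S2-028 against S2-007, and 5 of 12 were higher in S2-028 against S2-020, where 21.6%, 18.4% and 22.2% of all genes were called in either direction. MET, the receptor of hepatocyte growth factor, held 978, 1032 and 1059 CPM in S2-007, 376, 369 and 364 CPM in S2-020 and 729.8, 688 and 786 CPM in S2-028. Its relative MST1R held 148, 149 and 159 CPM in S2-007, 26.1, 25.1 and 28.4 CPM in S2-020 and 85.00, 85.4 and 83.7 CPM in S2-028. ERBB2, which associates with PLXNB1, held 144, 138 and 128 CPM in S2-007, 64.4, 58.8 and 62.4 CPM in S2-020 and 160.2, 164 and 144 CPM in S2-028. All 3 kinases were lowest in S2-020, by -1.50, -2.55 and -1.18 against S2-007 (adjusted p = 9.08e-16, 2.33e-17 and 4.53e-12), the line in which PLXNB1 was lowest too. PTK7, a catalytically inactive receptor kinase that associates with A-type plexins, held 15.4, 10.5 and 11.9 CPM in S2-007, 25.5, 29.96 and 32.4 CPM in S2-020 and 42.8, 40.7 and 37.5 CPM in S2-028 and was higher than in S2-007 by 1.68 (SE 0.12, adjusted p = 1.40e-10) in S2-028 and 1.18 (SE 0.12, adjusted p = 8.60e-08) in S2-020.

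VEGF ligands compete with class 3 semaphorins for neuropilins. Of 3 tested, VEGFA, which acts on vessels, held 31.4, 28.9 and 28.9 CPM in S2-007, 54.6, 43.5 and 52.1 CPM in S2-020 and 113, 94.8 and 109.9 CPM in S2-028, with S2-028 highest (1.83 (SE 0.077, adjusted p = 5.06e-14) against S2-007 and 1.08 (SE 0.082, adjusted p = 1.68e-09) against S2-020). PGF, which binds NRP1 and FLT1, held 2.54, 2.77 and 3.99 CPM in S2-007, 39.3, 42.9 and 38.7 CPM in S2-020 and 4.29, 3.73 and 3.67 CPM in S2-028. It was 3.67 (SE 0.12, adjusted p = 3.93e-15) in S2-020 against S2-007 and -3.37 (SE 0.10, adjusted p = 1.34e-15) in S2-028 against S2-020, so only the S2-020 libraries were high. VEGFB was lower than in S2-007 in both other lines, by -0.74 (SE 0.071, adjusted p = 2.87e-08) in S2-028 and -0.85 (SE 0.063, adjusted p = 8.87e-10) in S2-020. VEGFC and VEGFD did not pass the filter.

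Among the effectors, 7 of 35 were higher and 5 lower in S2-028 against S2-007, 8 of 36 higher and 7 lower in S2-020 against S2-007, and 6 of 36 higher and 7 lower in S2-028 against S2-020. The shares of all genes called in either direction were 18.4%, 21.6% and 22.2% in that order. The largest change was that of DPYSL3 (also CRMP4), of the collapsin response mediator proteins that carry the SEMA3A signal to microtubules. It held 10.5, 11.6 and 12.2 CPM in the S2-007 libraries, 1561, 1607 and 1491 CPM in the S2-020 libraries and 5.51, 3.92 and 5.61 CPM in the S2-028 libraries. It differed by 7.05 (SE 0.066, adjusted p = 5.93e-23) in S2-020 against S2-007 and -8.28 (SE 0.099, adjusted p = 4.98e-21) in S2-028 against S2-020. S2-020 thus held the most DPYSL3 and the least SEMA3A of the lines. TIAM1, an exchange factor of RAC1, held 52.5, 52.1 and 50.98 CPM in S2-007, 10.4, 11.1 and 10.2 CPM in S2-020 and 115, 97.2 and 93.8 CPM in S2-028 and was lowest in S2-020 (-2.32 (SE 0.073, adjusted p = 1.44e-15) against S2-007) and highest in S2-028 (0.98 (SE 0.075, adjusted p = 8.42e-10)). RHOD, a small GTPase that binds plexins, held 82.1, 85.6 and 83.2 CPM in S2-007, 18.4, 17.2 and 17.8 CPM in S2-020 and 86.7, 83.9 and 95.5 CPM in S2-028, with -2.27 (SE 0.063, adjusted p = 2.09e-16) in S2-020 against S2-007. FARP1, an exchange factor linked to A-type plexins, was higher in S2-020 by 1.29 (SE 0.052, adjusted p = 6.80e-14) against S2-007.

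Of the 8 proteases, 1 was higher and 3 lower in S2-028 against S2-007, 4 were lower in S2-020 against S2-007, and 2 were higher and 2 lower in S2-028 against S2-020, beside the same shares of all genes. MMP14, a membrane protease that can release SEMA4D from the surface, held 95.6, 96.8 and 103 CPM in S2-007, 50.9, 53.8 and 49.96 CPM in S2-020 and 12.04, 10.1 and 11.7 CPM in S2-028. It fell in the order S2-007, S2-020, S2-028 with no overlap, -3.12 (SE 0.080, adjusted p = 1.71e-17) in S2-028 and -0.97 (SE 0.056, adjusted p = 2.15e-11) in S2-020 against S2-007. PCSK5, a furin-like convertase of the kind that processes class 3 semaphorins, held 166, 167 and 158 CPM in S2-007, 17.04, 12.7 and 13.5 CPM in S2-020 and 119, 125 and 117 CPM in S2-028, and S2-020 was lowest by -3.54 (SE 0.088, adjusted p = 3.72e-17) against S2-007. PCSK6 and PCSK7, of the same family, were lower than in S2-007 in both other lines, by -2.36 and -0.89 in S2-028 and -1.55 and -1.37 in S2-020. FURIN itself was not called in any comparison.

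**Figure D4:**
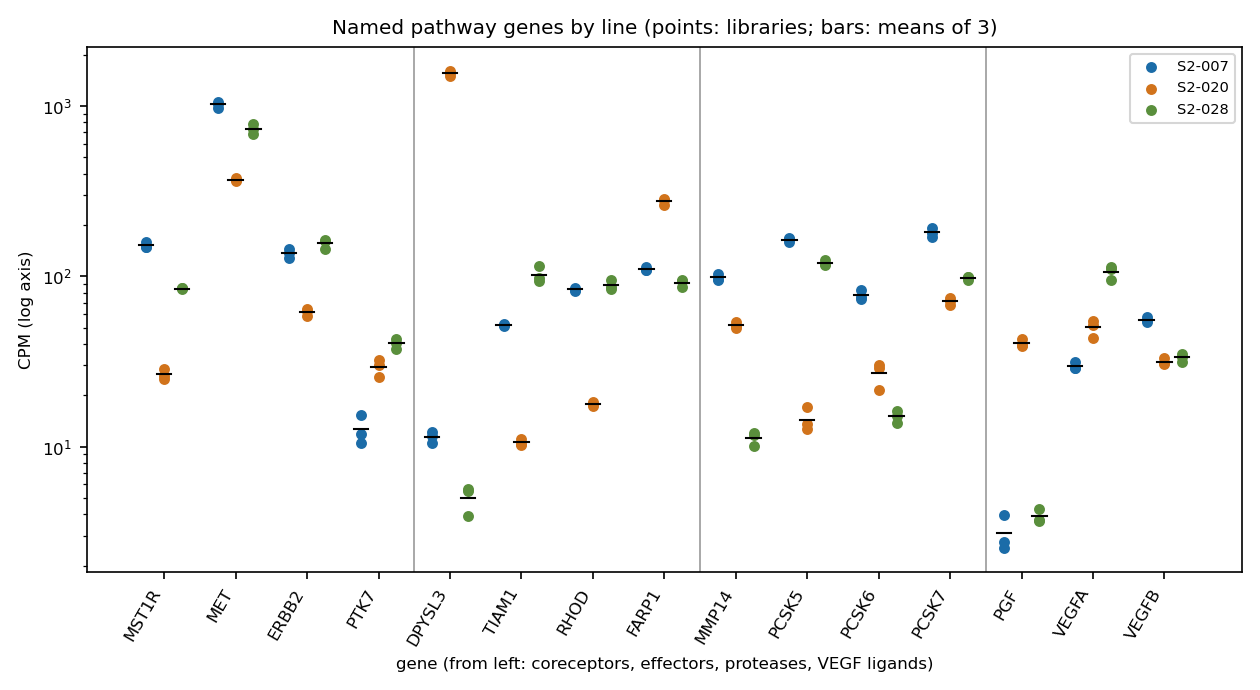
CPM on a log axis of the named coreceptors, effectors, proteases and VEGF ligands, with a point for each library, 3 libraries per line, and a black bar at the mean of the line. DPYSL3 and PGF are high in the S2-020 libraries only, and MST1R, MET, ERBB2, TIAM1, RHOD and PCSK5 are lowest there.

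Each gene was last set beside the 50 nearest tested genes on its chromosome, as a description of its surroundings. Around SEMA3B and SEMA3F, which share nearly all of these neighbours, the median log2 fold change of the neighbours was -0.47 in S2-028 against S2-007 and -0.55 in S2-028 against S2-020, and around SEMA3G it was -0.47 and -0.58. In S2-028 against S2-007 the neighbours lay on the side of SEMA3B (-3.43) and SEMA3G (-1.03) and opposite to SEMA3F (0.53), which was not called. In S2-020 against S2-007 the median was 0.058 around SEMA3B (-1.997) and SEMA3F (-1.93), both called lower. There it was 0.19 around SEMA3G (-0.059), which was not called. Around PLXND1 and PLXNA1, on the long arm of the same chromosome, the medians were 0.42 and 0.32 in S2-028 against S2-007. Around PLXNA2 and PLXNA3 they were -0.30 and 0.29, with a change of sign for PLXNA2 (0.084) when the 20 nearest genes were used. Around the 3 genes with the largest increase in S2-028 against S2-007 the medians were -0.16 (SEMA6B), -0.11 (SEMA4A) and -0.037 (SEMA6A), and around SEMA4G, which was lower by -3.39, the median was -0.0046. That around SEMA6A also changed sign with the 20 nearest genes (0.076), as did 15 of all 93 medians. Over the 31 genes and the 3 comparisons these medians reached at most 0.58 in size, and copy number was not measured.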

How the data were processed

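RNA-seq libraries of S2-007, S2-020 and S2-028 (3 each, 9 in all) were assigned to lines by their labels. According to the submitters' notes and the methods, the libraries were strand-specific, Trimmomatic (0.39) trimmed the reads and BWA (0.7.17) placed them on GRCh38.p14. BWA makes no spliced alignments, which can cost reads at exon junctions. The counting tool and its handling of strand and shared reads were not given in the sources used here. The authors deposited whole-number read counts per gene without normalization, and these counts were used. Their 18 columns of normalized values were not used, and 2 lines that name no gene (a sum and a ratio) were left out.

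Counts were fitted in R 4.3.3 with edgeR 4.0.16 (filterByExpr, minimum count 10 and total 15, TMM, quasi-likelihood F-test), with the 6 libraries of each pair of lines and Benjamini-Hochberg adjustment over all genes tested. Genes with an adjusted p under 0.05 that differed 1.5-fold or more were called. The study's text names a likelihood ratio test and its table a quasi-likelihood test, so the former was an alternative, beside DESeq2 1.42.0. The fit was tested on simulated data. SE were computed from the fold change and the F statistic. CPM use TMM factors of all 9 libraries, so their ratio can differ slightly from a fold change. A count of 3 was the floor, and no line had all libraries of a gene of the 31 at or under it. Floors cover counting error only.

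The gene family and the pathway and marker lists were picked for description with earlier results of these data known. Within the family no gene was left out by its values, but the 4 genes whose promoters are printed were picked by their levels. The window of PLXNA1 (46 CG) was also drawn up and is not printed. Every gene of the 31 is accounted for, those called at least once with the value of every library. Of each pathway list at most 4 called genes are named, those with the smallest adjusted p, and FURIN, VEGFC and VEGFD were named after their values were seen. Marker genes are named as a check of the lines. No libraries were close enough to be duplicates, with a chi-square statistic per gene of 7.95 to 21.5 within a line and 205 to 311 between lines.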

Additional observations from a re-analysis of the deposited data

How the results depend on the processing

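The counts of higher and lower genes among the 31 stayed within 1.5 times in each comparison under RLE size factors, DESeq2, the likelihood ratio test, no filter on low counts, a joint fit of all 9 libraries, adjusted p alone and each library left out. The exception was the number higher in S2-020 against S2-007, which was 1 in place of 2 when at least 10 counts were asked of every library, because that filter removes SEMA6B. Of 51 calls, 46 held under each alternative that gave a value, 5 were lost under at least 1, and none turned direction. The 5 were those of SEMA3G, PLXNC1, SEMA6D and SEMA4G given above. RLE or DESeq2 scaling moved the median of all genes by at most 0.031 (log2).

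No pairing by replicate number was seen. The correlation of deviations between same-numbered libraries lay between -0.047 and 0.14 and was over 0.1 in 1 of 9 pairs. Between differently numbered libraries it lay between -0.19 and 0.17. With so few libraries per line this cannot show that same-numbered libraries were prepared apart. With the replicate number as a block the counts were 10 higher and 8 lower in S2-028 against S2-007, 2 and 14 in S2-020 against S2-007 and 13 and 4 in S2-028 against S2-020, and no call of the 31 genes changed.

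Of 42 results not called, 3 passed both thresholds when single libraries were left out (SEMA3D, SEMA3E and PLXNC1, given above), and 15 changed sign under some alternative. With all libraries, these 15 reached from -0.19 (PLXNA2 in S2-028 against S2-020) to 0.22 (SEMA5B in S2-020 against S2-007). The SE of these ends were 0.28 and 0.53, so such genes are not shown to be unchanged. PLXND1 (-0.00995) and SEMA4D (-0.0082) did so in S2-020 against S2-007 with at least 10 counts in every library. When libraries were left out singly, the ranges in S2-028 against S2-007 were PLXNA4 -0.16 to 0.037, PLXNC1 -0.16 to 0.058, SEMA5A -0.15 to 0.35 and SEMA5B -0.023 to 0.25. In S2-020 against S2-007 they were PLXND1 -0.015 to 0.053, SEMA3G -0.30 to 0.11, SEMA4A -0.49 to 0.14, SEMA4D -0.055 to 0.040, SEMA4F -0.092 to 0.12 and SEMA5B -0.19 to 0.60. In S2-028 against S2-020 they were PLXNA1 -0.21 to 0.042, PLXNA2 -0.38 to 0.036, SEMA3D -0.040 to 0.82, SEMA5B -0.56 to 0.23 and SEMA6C -0.25 to 0.27. Single libraries limit the low genes most. In S2-020, SEMA3F held 5 to 22 reads per library and SEMA5B 14 to 44. The SE of their log2 fold changes against S2-007 were 0.50 and 0.53. Differences near these SE can be missed, and the smallest detectable difference was not computed.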
